A study of Mus musculus with 8 samples.

Results

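The genes described are the 7 Toll-like receptors Tlr1, Tlr2, Tlr3, Tlr4, Tlr6, Tlr7 and Tlr9, the receptor-like gene Cd180, the chaperone Unc93b1 and the adaptor Myd88. They were chosen by name, as the core of the microbial sensing system of B cells, with no threshold on a measured value but with earlier results of these data known. All 10 were found by their Ensembl identifiers among the 54532 genes of the count table, and all 10 passed the filter on low counts that left 15305 genes for testing.

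The data are RNA-seq read counts of bone marrow B cells from mice after ovariectomy (OVX, removal of the ovaries, a surgical model of menopause) or after a sham operation (Sham), with 3 libraries in each group. The cells were sorted from bone marrow with magnetic beads, and each library held reads of both progenitor and mature B cell genes. No engineered allele and no drug treatment is given for either group, and the labels of the RNA-seq libraries give neither strain nor age. ChIP-seq of HIF-1α and the matching input, which the series also lists, are not analysed here, and the RNA-seq libraries are named below by group and replicate number.

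Toll-like receptors bind molecules of microbes and pass the signal through adaptor proteins to the transcription factors of the NF-κB and interferon regulatory factor families. Some sit at the cell surface, where they bind lipids and lipoproteins of the bacterial wall, and others sit in endosomes, where they bind RNA or DNA. B cells carry both kinds beside the B cell receptor, and in mice naive B cells divide and become plasma cells when such ligands reach them.

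Promoter sequences are shown for Tlr1 and Tlr9 because they hold the letters of motifs that bear on the question of the study or on B cells, and because these genes differed in how evenly they were measured across libraries. RefSeq windows of 300 bases, from 250 bases before to 50 bases after a transcript start in GRCm38.p6, the patched form of the mm10 build that the labels name, were found for 7 of the 10 genes, with 10 windows in all. They were searched on both strands for ACGTG, the core letters of the hypoxia response element that HIF-1α binds, for its variant GCGTG, for GAGGAA, the core of sites of PU.1, a factor of myeloid and B cells, and for ATGCAAAT, the octamer bound by OCT factors. In the lines below, which read 5′ to 3′ on the strand of the gene, capitals mark these matches. The first window lies at chr5:64932650-64932949 on the minus strand, the second at chr5:64933509-64933808 on the minus strand and the third at chr9:106222348-106222647 on the plus strand.
Tlr1, start with the hypoxia core: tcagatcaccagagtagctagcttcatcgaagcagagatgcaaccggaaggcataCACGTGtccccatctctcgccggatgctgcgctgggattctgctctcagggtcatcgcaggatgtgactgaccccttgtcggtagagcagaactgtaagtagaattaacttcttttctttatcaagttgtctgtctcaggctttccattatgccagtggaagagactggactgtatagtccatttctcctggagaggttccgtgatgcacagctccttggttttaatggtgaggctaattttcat
Tlr1, start with GAGGAA: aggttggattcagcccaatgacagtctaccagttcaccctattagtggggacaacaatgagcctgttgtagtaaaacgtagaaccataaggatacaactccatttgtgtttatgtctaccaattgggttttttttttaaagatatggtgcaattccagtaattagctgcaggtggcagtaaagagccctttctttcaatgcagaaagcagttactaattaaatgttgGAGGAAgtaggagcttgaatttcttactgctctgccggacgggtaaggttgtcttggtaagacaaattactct
Tlr9, start with GAGGAA on both strands and the octamer: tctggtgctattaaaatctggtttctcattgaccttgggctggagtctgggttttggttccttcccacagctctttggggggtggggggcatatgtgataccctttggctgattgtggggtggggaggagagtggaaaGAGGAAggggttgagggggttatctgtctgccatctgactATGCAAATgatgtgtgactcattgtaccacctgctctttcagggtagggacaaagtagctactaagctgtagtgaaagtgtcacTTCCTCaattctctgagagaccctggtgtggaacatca

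ACGTG was found in 1 of the 10 windows, the first of Tlr1, and GCGTG was found in 0 of them. The match lies in the palindrome CACGTG, which holds ACGTG on both strands. No window was held for Tlr4, Tlr7 or Unc93b1, and the windows of Cd180 overlap over most of their length. Of all 32851 windows of this length, 19.6% held ACGTG and 32.4% held GCGTG. The PU.1 letters were found in the second window of Tlr1 and in that of Tlr9, against 28.3% of all windows. The octamer was found in the Tlr9 window, against 1.74% of all windows. A match describes letters only, and binding at these starts was not analysed here.

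Total counts ran from 23838775 to 33136701 reads per library. Markers of the labelled cell type were abundant, as the B cell receptor chain Cd79a had between 38042 and 58684 reads and the B lineage factor Pax5 between 29209 and 41804 reads in every library, while the T cell gene Cd3e had between 3 and 33 reads. Genes of other cell types were present at unequal levels. The neutrophil gene S100a9 ranged from 8334 to 61850 reads and the monocyte and macrophage gene Csf1r from 803 to 3407 reads. By the quasi-likelihood test of edgeR, adjusted by Benjamini-Hochberg, 0 of the 15305 genes (0%) had an adjusted p under 0.05 between OVX and Sham, and 574 genes, 3.75%, had an unadjusted p under 0.05 by that test, 1.47% higher in OVX and 2.28% lower. The lowest adjusted p of any gene was 0.811. DESeq2 and limma-voom also called no gene. DESeq2, run without the filter on low counts, had 755 of 27416 genes at an unadjusted p under 0.05, and limma-voom 594 of 15305.

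None of the 10 genes was called, and none had an unadjusted p under 0.05. The fitted log2 fold change of OVX over Sham was below 0 for 8 genes and above 0 for Tlr6 and Myd88, and ranged from -0.72 for Tlr3 to 0.11 for Myd88. Its median over the 10 genes was -0.18, beside -0.01 over all genes tested. Without the library Sham 2 the median was -0.04, and 6 genes were lower in OVX. Tlr1, Tlr2, Tlr3, Tlr7, Cd180 and Myd88 each had an adjusted p of 0.811 by edgeR's quasi-likelihood test, the value shared with the lowest genes of the table. By the same test the adjusted p was 0.866 for Tlr4, 0.878 for Tlr9, 0.969 for Tlr6 and 0.979 for Unc93b1.

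**Figure D1:**
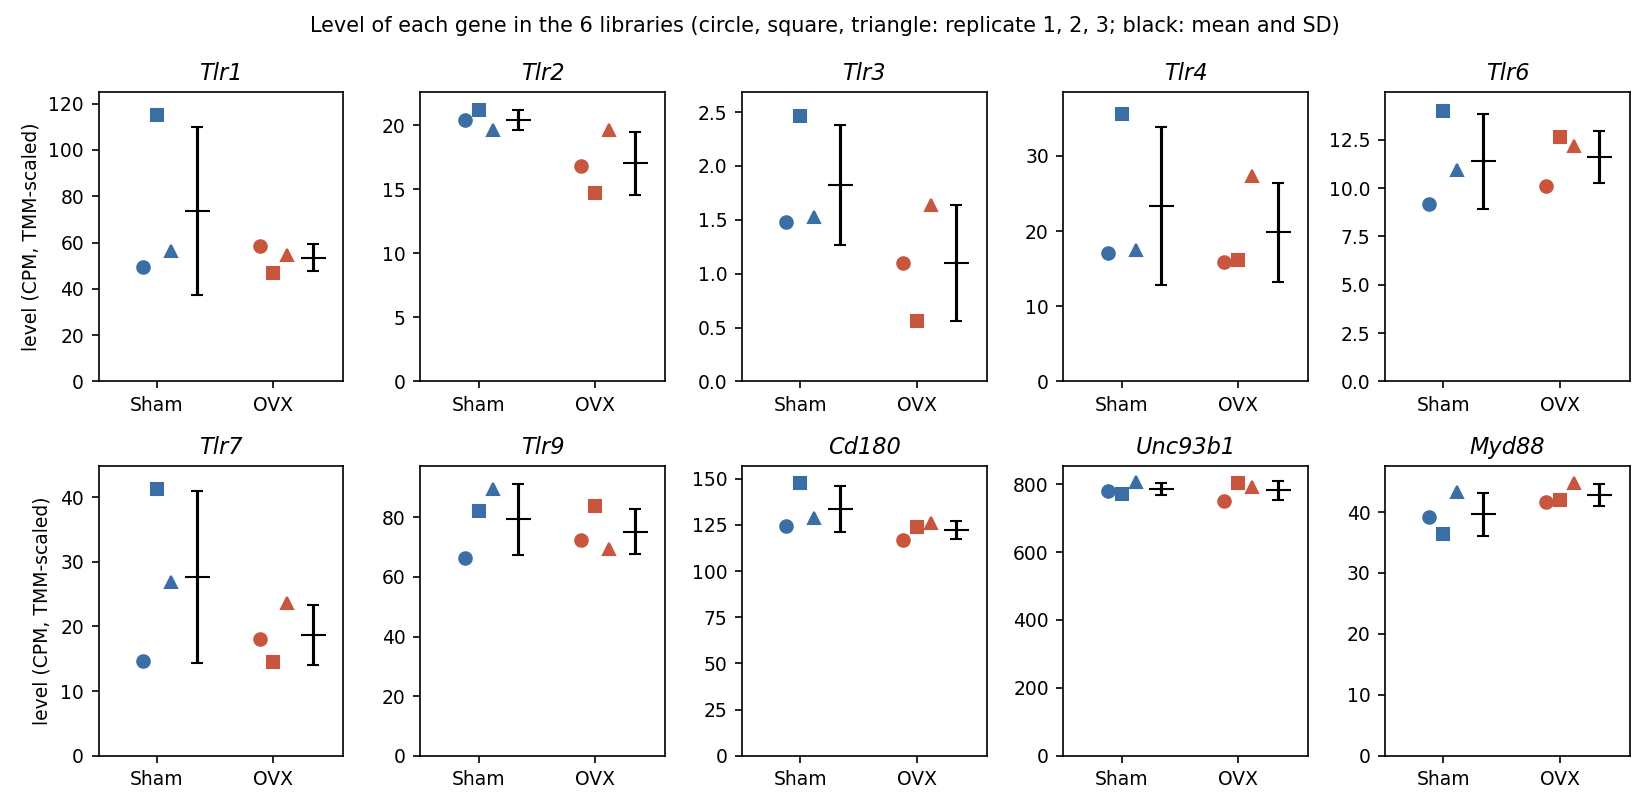
Level of each of the 10 genes in CPM (reads scaled to a common library size with TMM factors, vertical axes starting at 0) in the 3 Sham and 3 OVX libraries, with the mean and SD in black. Sham 2, the square of the Sham group, is the highest of the 6 libraries for 7 genes, while the 6 points of Unc93b1 lie within 751 to 806 CPM.

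The surface receptors were taken first. Tlr1 and Tlr6 each pair with Tlr2, and the pairs bind triacylated and diacylated lipoproteins of bacteria, respectively. Tlr1 lies at 5:64924680-64933600 and Tlr6 at 5:64953092-64970942 in GRCm38.p6, with 19491 bases between them. Tlr1 and Tlr6 are close paralogs, and Tlr6 overlaps the annotated spans of Fam114a1 and Mir574, so some of their reads may have been assigned to the wrong gene, and these levels carry that uncertainty.

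Tlr1 had 1172, 3273 and 1397 reads in Sham 1, 2 and 3 and 1434, 1334 and 1813 reads in OVX 1, 2 and 3. Scaled to library depth as CPM, reads over the library size with TMM factors, this was 49.4, 115 and 56.2 CPM in Sham and 58.4, 47.0 and 54.8 CPM in OVX. Sham 2 stood at about double the level of the other libraries, and the other 5 libraries of the 2 groups overlapped. The mean was 53.4 ± 5.79 CPM in OVX and 73.6 ± 36.2 CPM in Sham (SD, n = 3 each), a log2 fold change of -0.46 (SE 0.30). Without Sham 2 the log2 fold change was 0.01, with the sign turned.

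Tlr2, the shared partner of both pairs, had 483, 602 and 488 reads in Sham and 413, 416 and 648 reads in OVX. The levels were 20.4, 21.2 and 19.6 CPM in Sham and 16.8, 14.7 and 19.6 CPM in OVX. The highest OVX library was below the lowest Sham library, but OVX 3 and Sham 3 differed by less than the level of a single read, and with upper-quartile factors the groups overlapped. Tlr2 was the only one of the 10 genes whose groups did not overlap, beside 8.44% of all genes tested, of which 4.12% were lower in every OVX library. The means were 17.0 ± 2.47 CPM in OVX and 20.4 ± 0.785 CPM in Sham, with a log2 fold change of -0.26 (SE 0.13) and a two-sided exact permutation p of 0.1, the smallest that 3 against 3 libraries allow. The fold change of Tlr2 kept its sign across the scalings, tools, filters and covariates tried and with each library left out, but not its size. It was -0.12 with the monocyte and macrophage share as a covariate, -0.16 without OVX 2 and -0.37 without OVX 3. In the last fit the unadjusted p was 0.0301 by edgeR's quasi-likelihood test, and 411 of 15678 genes tested had one under 0.05.

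Tlr6 had 218, 398 and 272 reads in Sham and 248, 358 and 402 reads in OVX. In CPM it stood at 9.19, 14.0 and 10.9 in Sham and at 10.1, 12.6 and 12.2 in OVX. Every OVX library lay between the lowest and the highest Sham library. The log2 fold change was 0.03 with a 95% interval from -0.42 to 0.48, and it was -0.06 when libraries were scaled on B cell genes. The ratio of Tlr1 reads to Tlr6 reads was 5.38, 8.22 and 5.14 in Sham and 5.78, 3.73 and 4.51 in OVX. The neighbouring genes did not keep a fixed ratio, and the highest ratio was 2.21 times the lowest.

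Tlr4, the receptor of lipopolysaccharide, lies at 4:66827551-66846581 and works with the small protein Ly96, also called MD-2. It had 405, 1010 and 435 reads in Sham and 391, 459 and 905 reads in OVX. The levels were 17.1, 35.5 and 17.5 CPM in Sham and 15.9, 16.2 and 27.4 CPM in OVX. Each group held 1 high library, Sham 2 and OVX 3, and the other 4 libraries lay between 15.9 and 17.5 CPM. OVX over Sham gave a log2 fold change of -0.24 (SE 0.34), which was 0.20 without Sham 2. Ly96 had 76, 111 and 110 reads in Sham and 85, 94 and 159 reads in OVX, and its log2 fold change was 0.01 (SE 0.24).

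Cd180, also called RP105, resembles the outer part of Tlr4 but lacks its signalling domain, and forms a complex with Ly86 (MD-1) on B cells. It lies at 13:102693547-102706631. It had 2955, 4199 and 3208 reads in Sham and 2874, 3517 and 4171 reads in OVX. The levels were 125, 148 and 129 CPM in Sham and 117, 124 and 126 CPM in OVX. Sham 2 was again the highest library, and OVX 3 lay above the lowest Sham library, so the groups overlapped. The means were 122 ± 4.81 CPM in OVX and 134 ± 12.3 CPM in Sham, and the log2 fold change was -0.13 (SE 0.08). It was -0.05 without Sham 2 and -0.06 with the monocyte and macrophage share as a covariate. Ly86 had 2015, 3398 and 2350 reads in Sham and 2220, 2483 and 3093 reads in OVX, with a log2 fold change of -0.14 (SE 0.12). The ratio of Cd180 reads to Ly86 reads stayed between 1.24 and 1.47 in the 6 libraries. The highest ratio was 1.19 times the lowest, while the highest level was 1.26 times the lowest for Cd180 and 1.41 times for Ly86. How narrow this ratio is among pairs of genes at large was not tested.

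The endosomal receptors sense nucleic acids. Tlr3, the receptor of double-stranded RNA, lies at 8:45395665-45411075 and had few reads, with 35, 70 and 38 in Sham and 27, 16 and 54 in OVX. The levels were 1.48, 2.46 and 1.53 CPM in Sham and 1.10, 0.564 and 1.63 CPM in OVX. OVX 2 was the lowest and Sham 2 the highest library, and OVX 3 lay above Sham 1 and Sham 3. The log2 fold change of -0.72 (SE 0.43) was the lowest of the 10 genes and had a 95% interval from -1.74 to 0.29. It was -0.44 without Sham 2, -0.41 without OVX 2 and -1.14 without OVX 3. Of these fits, only the last had an unadjusted p under 0.05, at 0.0439 by edgeR's quasi-likelihood test. In that fit 411 of 15678 genes tested had one under 0.05.

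Tlr7, the receptor of single-stranded RNA, is on the X chromosome at X:167303380-167330574. It had 347, 1174 and 670 reads in Sham and 444, 410 and 780 reads in OVX. The levels were 14.6, 41.3 and 26.9 CPM in Sham and 18.1, 14.5 and 23.6 CPM in OVX. The Sham libraries alone spanned nearly the whole range, with Sham 1 almost as low as the lowest OVX library and Sham 2 the highest of all. The mean was 18.7 ± 4.60 CPM in OVX and 27.6 ± 13.4 CPM in Sham, with a log2 fold change of -0.56 (SE 0.36). It was -0.15 without Sham 2 and -0.87 without Sham 1. Without Sham 1 the unadjusted p was 0.0135 by edgeR's quasi-likelihood test, and 2698 of 16051 genes tested had one under 0.05. The lowest adjusted p of Tlr7 over all alternatives was 0.273, by the same test.

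Tlr9, the receptor of unmethylated CpG DNA, lies at 9:106222598-106226876. It had 1573, 2337 and 2229 reads in Sham and 1780, 2376 and 2296 reads in OVX. The levels were 66.3, 82.2 and 89.6 CPM in Sham and 72.4, 83.8 and 69.4 CPM in OVX. Every OVX library lay within the range of the Sham libraries, and Sham 3 was the highest. The means were 75.2 ± 7.56 CPM in OVX and 79.4 ± 11.9 CPM in Sham, with a log2 fold change of -0.08 (SE 0.13).

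Tlr7 and Tlr9 share a chaperone at the level of protein. Their reads did not keep a fixed ratio. The ratio of Tlr7 reads to Tlr9 reads was 0.221, 0.502 and 0.301 in Sham and 0.249, 0.173 and 0.340 in OVX. The groups overlapped in this ratio, and its highest value was 2.91 times its lowest.

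Unc93b1, the membrane protein that carries the nucleic acid sensing receptors from the endoplasmic reticulum to endosomes, lies at 19:3935158-3949340. It had 18517, 21948 and 20052 reads in Sham and 18456, 22762 and 26224 reads in OVX. The levels were 781, 772 and 806 CPM in Sham and 751, 803 and 793 CPM in OVX. The groups overlapped, and the highest library was 1.07 times the lowest, a range narrower than that of nearly all genes tested (percentile 1.2), whose median was 1.43. In the fit its log2 fold change was -0.01 (SE 0.07), and the 95% interval allowed a ratio of OVX to Sham between 0.889 and 1.11. No other of the 10 genes had an interval as narrow.

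Myd88, the adaptor that the Toll-like receptors described here use, except Tlr3, lies at 9:119335934-119340018. It had 931, 1033 and 1078 reads in Sham and 1023, 1189 and 1482 reads in OVX. The levels were 39.3, 36.4 and 43.3 CPM in Sham and 41.6, 41.9 and 44.8 CPM in OVX. Sham 2 was the lowest library here and OVX 3 the highest, and Sham 3 lay above OVX 1 and OVX 2. The means were 42.8 ± 1.77 CPM in OVX and 39.7 ± 3.51 CPM in Sham, and the log2 fold change was 0.11 with a 95% interval from -0.10 to 0.32. It was 0.05 without Sham 2 and 0.17 without Sham 3.

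**Figure D2:**
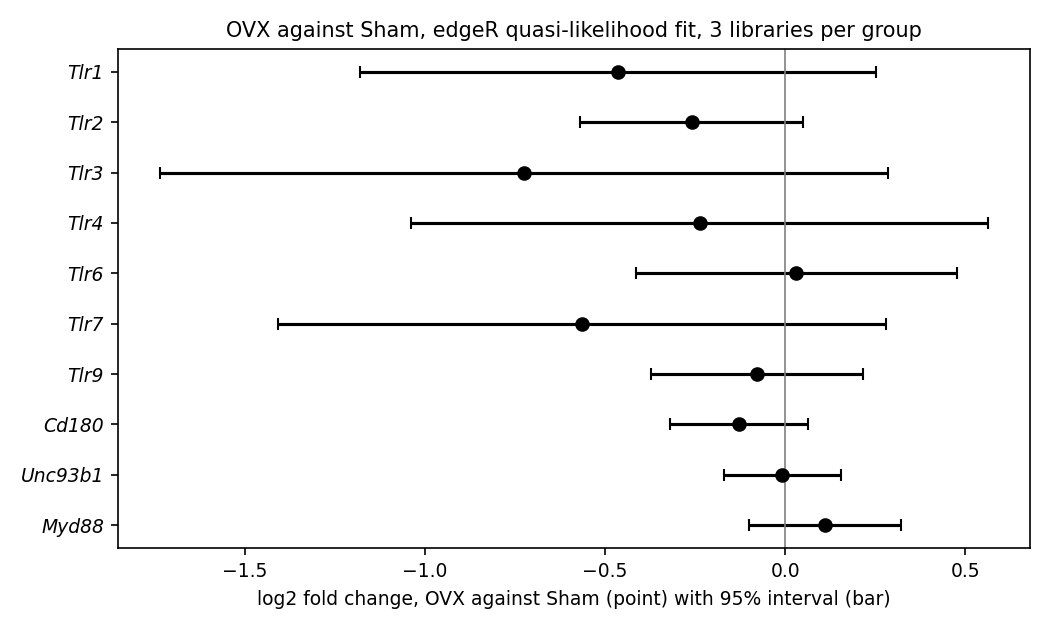
Log2 fold change of OVX over Sham (points) with its 95% interval (bars) for the 10 genes, from the quasi-likelihood fit over 15305 genes with 3 libraries in each group. Every interval spans 0, and the intervals widen from Unc93b1 (-0.17 to 0.15) to Tlr3 (-1.74 to 0.29).

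The 10 genes differed from one another in their spread across libraries. The ratio of the highest to the lowest library was 4.37 for Tlr3, 2.86 for Tlr7, 2.45 for Tlr1 and 2.23 for Tlr4. It was between 1.07 and 1.35 for Unc93b1, Myd88, Cd180 and Tlr9. Sham 2 was the highest library for 7 of the 10 genes, while 25.7% of all genes tested were highest there. OVX 2 was the lowest for 4 of the 10, beside 17.6% of all genes tested.

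Marker genes of B cell stages and of other cell types also varied between libraries, and some of the lists peaked in Sham 2. The 9 genes of mature B cells, led by Ighd, the heavy chain constant region of IgD, took 0.286% of the reads of Sham 2 and between 0.121% and 0.155% of those of each other library. Ighd itself had 28741 reads in Sham 2 and between 10070 and 16921 reads elsewhere. The 10 genes of B cell progenitors, led by the recombinase gene Rag1, were lowest in Sham 2 at 0.166% and reached 0.317% in OVX 3. In bulk RNA, fewer cells of a type and less RNA per cell cannot be told apart.

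The 15 monocyte and macrophage genes, led by Lyz2, took 0.134% to 0.265% of the reads in Sham and 0.0744% to 0.190% in OVX. The share was highest in Sham 2 and lowest in OVX 2. Lyz2 itself had its most reads in Sham 3, 26619 beside 16114 in Sham 2. The 18 neutrophil genes took between 0.266% and 1.02% in Sham and between 0.116% and 0.431% in OVX, with the highest share in Sham 3. The 7 genes of plasmacytoid dendritic cells, which are rich in Tlr7 and Tlr9, took between 0.00207% and 0.00497% in Sham and between 0.00148% and 0.00270% in OVX. Every gene of these lists had reads in at least 1 library, and the two-sided exact permutation p between the groups was between 0.2 and 0.9 for these 5 lists. The 6 dendritic cell genes, led by Flt3, took 0.00102%, 0.00150% and 0.00205% of the reads in Sham and 0.000987%, 0.000642% and 0.000936% in OVX. This list did not overlap between the groups, with an exact permutation p of 0.1, the smallest possible here. The erythroid list, with 9 of 10 genes matched and led by Hbb-bs, took between 0.0228% and 0.0488% in Sham and between 0.0142% and 0.0292% in OVX, with the highest share in Sham 2 and the lowest in OVX 2.

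The mature B cell, plasma cell (led by Irf4), monocyte and macrophage, and erythroid shares were highest in Sham 2. Irf4 itself was low in that library, with 11126 reads beside 12216 to 16632 in the others. Tlr1, Tlr2, Tlr3, Tlr4, Tlr6, Tlr7 and Cd180 were also highest in Sham 2. The neutrophil, plasmacytoid dendritic cell and dendritic cell shares were highest in Sham 3. So were those of T and NK cells (led by Cd4) and of basophils, mast cells and eosinophils (led by Prg2). Cd4 itself had 549 reads in Sham 3 and more, 1081, in OVX 3. The B cell progenitor, megakaryocyte (led by Ppbp), and stroma and endothelial (led by Cxcl12) shares were lowest in Sham 2 and highest in OVX 3. The part of these shares in the result was not tested. The monocyte and macrophage share averaged 0.197% in Sham and 0.127% in OVX. With 6 libraries, a covariate that differs between the groups cannot be fully separated from the group. The fits that follow therefore only describe how the values moved. With the monocyte and macrophage share as a covariate, the log2 fold change was -0.01 (SE 0.32) for Tlr1 and -0.15 (SE 0.34) for Tlr3. It was 0.29 (SE 0.26) for Tlr4 and 0.10 (SE 0.26) for Tlr7, and the median over the 10 genes was -0.01. With the mature B cell share as a covariate, an alternative added after the data were seen, it was -0.12 for Tlr1, -0.52 for Tlr3, 0.06 for Tlr4 and -0.23 for Tlr7, with a median of -0.07. The neutrophil share as a covariate gave -0.47 for Tlr1, -0.78 for Tlr3, -0.54 for Tlr4 and -0.49 for Tlr7, with a median of -0.23. The 12 general B cell genes, led by Cd79a, a signalling chain of the B cell receptor, varied little, between 0.959% and 1.10% of the reads. Scaling on these genes put 9 of the 10 genes lower in OVX with a median of -0.27, beside a median of -0.09 over all genes under that scaling, and called none. The gene that crossed 0 was Tlr6.

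**Figure D3:**
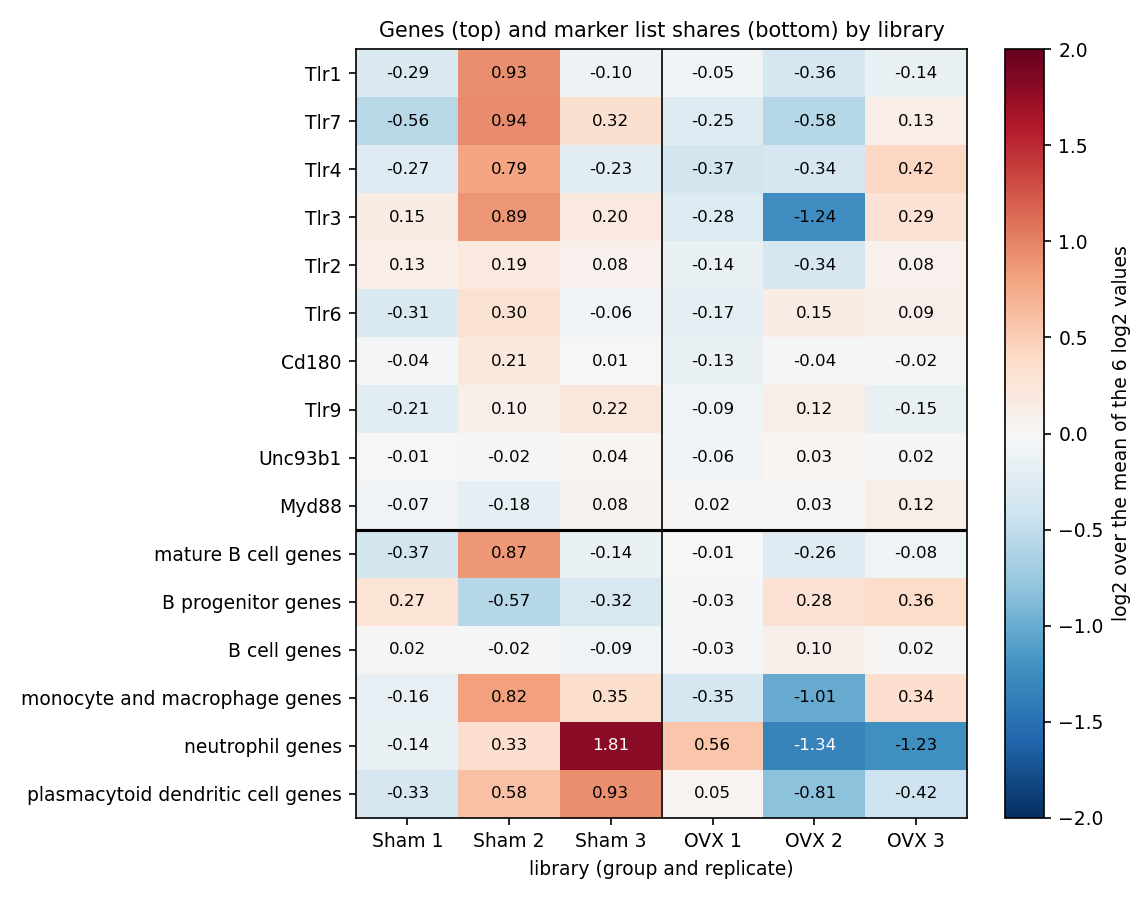
Level of each gene (upper rows) and share of reads of 6 marker lists (lower rows) in each library, as the log2 difference from the mean of the 6 log2 values. Tlr1, Tlr7, Tlr4 and Tlr3 are between 0.79 and 0.94 above their mean in Sham 2, where the mature B cell genes are 0.87 and the monocyte and macrophage genes 0.82 above theirs. The erythroid genes, a list not drawn, are 0.85 above theirs in Sham 2.

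The other genes of the pathway were described from 5 lists with 65 genes in all, of which 61 passed the filter. None was called, 30 had a fold change above 0 and 31 below, and their median log2 fold change was 0.00, beside -0.01 over all genes. An unadjusted p under 0.05 was reached by 4 genes that were higher in OVX and by 1 that was lower, 5 of 61, beside 3.75% of all genes tested.

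Of the remaining Toll-like receptors, Tlr5, Tlr8, Tlr12 and Tlr13 were tested and Tlr11, with between 0 and 6 reads, was not. Tlr13, a receptor of bacterial ribosomal RNA, had 160, 418 and 462 reads in Sham and 227, 103 and 298 in OVX, with a log2 fold change of -0.87 (SE 0.45). For Tlr13 it was -0.22 with the neutrophil and -0.21 with the monocyte and macrophage share as a covariate, and -0.55 without OVX 2. Tlr12, a receptor of a protozoan profilin, had 321, 283 and 228 reads in Sham and 237, 396 and 546 in OVX, with a log2 fold change of 0.30 (SE 0.24), which was -0.12 with the neutrophil covariate and 0.12 without OVX 3. Both overlapped between the groups, as did Tlr8 with 121, 415 and 199 reads in Sham and 100, 84 and 293 in OVX.

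Among the 14 genes of co-receptors, chaperones and endosomal handling, 4 had a fold change above 0 and 10 below, with a median of -0.08. Slc15a4, an endosomal transporter needed for signalling by Tlr7 and Tlr9, stood at 116 ± 11.7 CPM in OVX and 95.1 ± 12.98 CPM in Sham, with a log2 fold change of 0.28 (SE 0.12) and an unadjusted p of 0.0464 by edgeR's quasi-likelihood test. Its groups overlapped, and with the neutrophil share as a covariate the value was 0.08. Ctss, cathepsin S, a protease that cuts endosomal receptors, had the lowest value of the list at -0.25 (SE 0.21), which was 0.02 without Sham 2. Cnpy3, a chaperone of several Toll-like receptors, had 1628, 2306 and 1839 reads in Sham and 1732, 1927 and 2622 in OVX, with a log2 fold change of -0.04 (SE 0.09).

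The 22 adaptors and kinases tested had a median of 0.03, with 12 above 0 and 10 below. Traf6, the ubiquitin ligase that acts after Myd88 and the IRAK kinases, had 3085, 3265 and 3082 reads in Sham and 3524, 4378 and 4919 in OVX. Its levels were 130, 115 and 124 CPM in Sham and 143, 154 and 149 CPM in OVX, so the lowest OVX library was above the highest Sham library. The log2 fold change was 0.28 (SE 0.07), with an unadjusted p of 0.00529 and an adjusted p of 0.811 by the quasi-likelihood test of edgeR, adjusted by Benjamini-Hochberg, so it was not called.

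Peli1, another ubiquitin ligase of the pathway, also lay higher in every OVX library, at 114 ± 7.04 CPM against 98.5 ± 2.57 CPM. Its log2 fold change was 0.20 (SE 0.07), with an unadjusted p of 0.0185 by edgeR's quasi-likelihood test. It was 0.12 with scaling on B cell genes and 0.13 with the neutrophil share as a covariate. The unadjusted p by that test was then 0.0878 and 0.159, and the sign was kept under every alternative. Map3k7 (TAK1) and Tbk1, named here after their values were seen, were the other 2 genes of this list with all OVX libraries above all Sham libraries, beside 4.33% of all genes tested, and had log2 fold changes of 0.05 (SE 0.06) and 0.10 (SE 0.06). The extremes of the list were Pik3ap1 (BCAP), an adaptor of B cell and Toll-like receptor signalling, at 0.28 (SE 0.15), and the kinase gene Ikbke at -0.47 (SE 0.38). Both of these overlapped between the groups. Without Sham 2 they were 0.15 and -0.22, and Ikbke was -0.79 without Sham 1, -0.75 without OVX 1 and -0.25 without OVX 2.

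The 8 transcription factors tested had a median of 0.04, from -0.56 (SE 0.34) for Irf7, the interferon regulatory factor that acts after Tlr7 and Tlr9, to 0.10 (SE 0.08) for the NF-κB gene Relb. Irf7 was -0.14 without Sham 3, -0.86 without Sham 1 and 0.11 with the neutrophil covariate, and Relb was 0.05 without OVX 2. Of the 13 response genes tested, 7 had a fold change above 0 and 6 below. Nfkbia, the inhibitor of NF-κB that NF-κB itself induces, stood at 260 ± 21.1 CPM in OVX and 222 ± 19.5 CPM in Sham, with a log2 fold change of 0.23 (SE 0.09) and an unadjusted p of 0.0438, and its groups overlapped. With the neutrophil covariate it was 0.12, and with the monocyte and macrophage covariate 0.15.

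Tnf, the gene of the inflammatory cytokine TNF-α, had 56, 196 and 190 reads in Sham and 53, 66 and 74 reads in OVX. It stood at 2.24 ± 0.0853 CPM in OVX and 5.63 ± 2.86 CPM in Sham. The groups did not overlap, and the OVX libraries were close to one another while Sham 1 was far below Sham 2 and Sham 3. The log2 fold change was -1.33 (SE 0.42), with an unadjusted p of 0.0147 and an adjusted p of 0.811 by edgeR's quasi-likelihood test, and with the neutrophil share as a covariate it was -0.89. The neutrophil share was highest in Sham 3, and its part in the result was not tested.

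**Figure D4:**
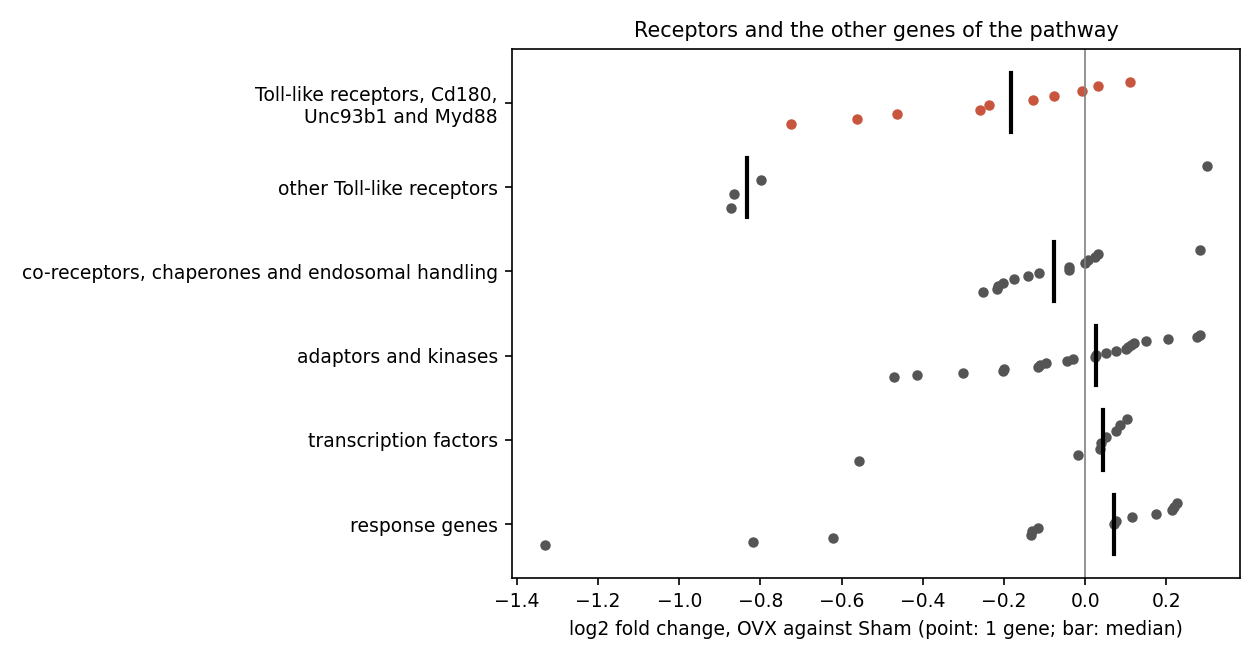
Log2 fold change of OVX over Sham for the 10 genes (red) and for the 5 lists of other pathway genes (grey), with 1 point for each gene tested and a bar at the median of each list. The medians run from -0.83 for the 4 other Toll-like receptors to 0.07 for the response genes, and Tnf is the lowest point at -1.33.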

How the data were processed

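Bone marrow B cells were compared between OVX and Sham (3 libraries each, grouped by their labels). The labels do not say that libraries come from separate mice, so p-values measure the spread between these libraries. The values are whole reads for each Ensembl gene, which the authors deposited as raw counts with no scaling. The submitters' processing notes name CASAVA, Bowtie 0.12.2 and mm10. The counting tool, its annotation and its use of strand are not given in the sources used here. RNA was harvested in Trizol per the labels, while the RNA sequencing paragraph of the study's methods names other kits.

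The counts were fitted with edgeR 4.0.16 in R 4.3.3 (filterByExpr by group, TMM factors on the genes kept, quasi-likelihood test, Benjamini-Hochberg adjustment over 15305 genes, threshold 0.05). Levels are CPM with TMM factors. The standard error is the log2 fold change divided by the square root of F. Single genes were also compared by two-sided exact permutation of log2(CPM + 0.1). Symbols matched 54409 of 54532 identifiers, Tasl was read as 5430427O19Rik, and Ahsp was not matched. Library totals ran from 23838775 to 33136701 reads, and every pair of libraries differed by more than sampling noise. The script was tested on simulated data.

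The genes, the pathway lists and the marker lists were chosen with earlier results of these data known. Every one of the 10 genes is named. Of the pathway lists, genes with an unadjusted p under 0.05, the highest and the lowest of each list, and the partners Ly86, Ly96 and Cnpy3 are named. For each of the 10 genes, the 3 genes of mean CPM 5 or more with the highest Pearson r of log2 CPM were sought. The gene with the most reads is named for marker lists described. Alternatives were DESeq2 1.42.0, limma-voom (limma 3.58.1), library size, upper-quartile or B cell gene scaling, no filter or a mean of at least 10 counts, each library left out, the replicate number as a block and the neutrophil or the monocyte and macrophage share as a covariate. A fit with the mature B cell share was chosen later, with the data seen. Promoter windows are RefSeq's (GRCm38.p6).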

Additional observations from a re-analysis of the deposited data

How the results depend on the processing

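None of the 10 genes, and no gene of the table, was called under any of the 17 alternatives, and the lowest adjusted p of any of the 10 genes in those edgeR, DESeq2 and limma fits was 0.273. At an unadjusted p under 0.05 there were 574 genes, which became 1269 with no filter, 206 with the replicate block, 153 with the neutrophil share and 199 with the monocyte and macrophage share as covariates, 2698 without Sham 1, 360 without Sham 2, 286 without Sham 3, 988 without OVX 1, 233 without OVX 2 and 411 without OVX 3. Of the 10 genes, 2 reached that level without Sham 1 (Tlr1 and Tlr7), beside 2698 of all 16051 genes tested in that fit. Without OVX 3 it was 2 (Tlr2 and Tlr3), beside 411 of all 15678, and under every other alternative 0. With no filter 27416 genes were tested, against 15305 in the main fit.

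The log2 fold change changed sign in 15 of 170 values for the 10 genes and in 18 of 255 for the pathway genes named. With library size scaling it was -0.0124 for Ly96, and with upper-quartile factors -0.0043 for Ly96. Scaling on B cell genes gave -0.0618 for Tlr6 and -0.0781 for Ly96. The neutrophil covariate gave -0.0773 for Tlr6, 0.0134 for Tlr9, -0.12 for Tlr12, 0.0322 for Ikbke and 0.11 for Irf7. The monocyte and macrophage covariate gave 0.29 for Tlr4, 0.0952 for Tlr7, 0.0199 for Ly86, 0.0911 for Cnpy3, 0.0874 for Ctss and 0.0998 for Ikbke. The mature B cell covariate gave 0.0616 for Tlr4 and 0.0075 for Cnpy3. The cause was not tested. With 1 library left out, the values ran from -0.69 to 0.014 for Tlr1, -0.54 to 0.20 for Tlr4, -0.10 to 0.21 for Tlr6, -0.20 to 0.0087 for Tlr9, -0.0259 to 0.0224 for Unc93b1, -0.25 to 0.0095 for Ly86, -0.18 to 0.11 for Ly96, -0.11 to 0.0235 for Cnpy3 and -0.41 to 0.0192 for Ctss.

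Same-numbered libraries did not deviate together (correlations of -0.417, -0.194 and -0.286 over 15305 genes). This check cannot show whether libraries were paired by design, and the library labels name no pairs. The fit with the replicate block called 0 genes and gave -0.36 for Tlr1, -0.27 for Tlr2, -0.78 for Tlr3, -0.46 for Tlr7 and -0.0019 for Ly96.

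With 3 libraries in each group, the 95% intervals allow a ratio of OVX to Sham between 0.442 and 1.19 for Tlr1, 0.300 and 1.22 for Tlr3, 0.487 and 1.48 for Tlr4 and 0.377 and 1.21 for Tlr7, and depth limits Tlr3 most, with at most 70 reads.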

Other observations

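The genes whose log2 CPM was most like that of each of the 10 genes over the 6 libraries give a second description of the patterns above, with Pearson's r computed over 6 points that share Sham 2 and therefore given without a p. Each set holds the 3 highest of 10381 genes compared (10382 for Tlr3), so high values of r were selected for. For Tlr1 the 3 genes were Bcl9l and Gm15675 (r = 0.997 each) and Tmem80 (0.996), and 203 of 10381 genes had r over 0.95. For Tlr7 they were Abcc5 (0.996), Slc6a6 (0.988) and Arhgap39 (0.987), with 81 genes over 0.95. For Tlr4 they were Ctsc (0.998), the gene of the lysosomal protease cathepsin C, Aes (0.994) and Nrros (0.991), with 89 genes over 0.95. For Tlr3 they were Abcd4 (0.984), Sc5d (0.981) and C2cd2 (0.975), with 25 genes over 0.95.

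For Tlr6 the first was Ticam1 (r = 0.986), the gene of TRIF, the adaptor of Tlr3 and Tlr4. Zfas1 (0.985) and Kcna3 (0.983) followed, with 15 genes over 0.95. For Tlr2 they were Srgap2 (0.979), Coq3 (0.971) and Bclaf1 (0.962), and for Tlr9 Klhl36 (0.988), Ash2l (0.975) and 9330175E14Rik (0.973). For Cd180 they were Suclg2 (0.994), Ppib (0.987) and Fam98c (0.984), with 36 genes over 0.95. Unc93b1, which varied least, had Arl15 (0.968), Eid1 (0.963) and Uspl1 (0.962), with 6 genes over 0.95. Myd88 had Rn7sk (0.972), Rngtt (0.971) and Dnah1 (0.969), with 14 genes over 0.95.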
